A study of Homo sapiens with 6 samples.

Results

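The let-7 family, with its close relative miR-98, was followed in spheroid and parental cells of MDA-MB-231, a triple-negative human breast adenocarcinoma line. Its members were taken by name, as every mature sequence whose stem-loop is let-7a, let-7b, let-7c, let-7d, let-7e, let-7f, let-7g, let-7i or mir-98, any copy number included. The rule itself uses no measured value, but the family was picked with earlier results of these data known. This gave 18 of the 437 mature sequences listed in the count tables, 9 from the 5p arm and 9 from the 3p arm, produced by 12 stem-loops. Spheroid cells had been grown in suspension in serum-free medium, and parental cells as a monolayer in tissue culture flasks in RPMI-1640 with fetal bovine serum, so culture dimension and medium cannot be told apart. Each condition had 3 samples of small RNA from this single line, but the values come from 1 count table per condition with 0 columns per sample. Whether a table pools the 3 samples or holds 1 of them is not settled: all 3 sample descriptions of a condition name the same table, whereas the sample sheet enters it beside replicate 1 alone. The study's library summary, whose entries for the most abundant miRNA are those of these tables, gives a single index tag per condition. In the sample sheet every spheroid sample carries the spheroid tag, but the third parental sample carries only another tag, and reads of the second carry both.

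A count is the number of reads assigned to a mature sequence, variants in length and sequence included. The totals were 1553014 reads for spheroid and 539798 for parental cells, so the spheroid table was 2.88 times as deep. The study's library summary has the reverse order, with more reads mapped to miRBase stem-loops for parental than for spheroid cells. Its spheroid entry is near the spheroid total here, but its parental entry is far above the parental total. Whether the parental table holds only part of the parental reads is not settled. Levels are given as reads per 1000000 of the table total (rpm), on which the smallest detectable level, set at 3 reads, was 1.93 rpm in the spheroid table and 5.56 rpm in the parental table. All 95% intervals are exact binomial ones for counting error only, since the libraries carry no molecular identifiers, reads are not independent molecules, and variation between cultures was not measured. Any test below therefore sets one pool of reads against another and not one culture condition against another. In bulk RNA of this kind, fewer cells with a miRNA and less of it per cell cannot be told apart.

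The let-7 miRNAs are among the most conserved animal miRNAs and accumulate as cells differentiate. Each hairpin precursor is cut by Dicer, and the 5p strand is the one usually kept in Argonaute, where bases 2 to 8, the seed, pair with messenger RNAs such as those of the RAS genes, HMGA2 and MYC. In stem cells and many tumours, the RNA-binding protein LIN28 holds let-7 precursors back by binding their terminal loop, and let-7 is widely studied as a brake on self-renewal in breast cancer cells. LIN28 and the target messengers were not measured in small RNA libraries.

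The 5p sequences are shown because the family is defined by their common seed, which is in capitals, and because several differ by so little that reads can be hard to assign. They are RefSeq mature sequences, 5′ to 3′, in order of level.
let-7a-5p: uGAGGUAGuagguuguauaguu
let-7f-5p: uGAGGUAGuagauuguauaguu
let-7i-5p: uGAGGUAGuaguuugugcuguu
let-7b-5p: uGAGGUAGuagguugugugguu
let-7g-5p: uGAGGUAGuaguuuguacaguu
miR-98-5p: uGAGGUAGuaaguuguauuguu
let-7d-5p: aGAGGUAGuagguugcauaguu
let-7e-5p: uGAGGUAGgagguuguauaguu
let-7c-5p: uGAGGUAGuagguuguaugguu
All 9 carry the seed GAGGUAG, and 0 other listed sequences do. Relative to let-7a-5p, with positions counted from 1 at the 5′ end and the let-7a base given first, let-7f-5p differs by G12A, let-7c-5p by A19G and let-7e-5p by U9G, which is 1 base each. let-7b-5p differs by A17G and A19G, let-7g-5p by G12U and U18C, miR-98-5p by G11A and A19U, and let-7d-5p by U1A and U16C. let-7i-5p is the farthest from let-7a-5p, with G12U, A17G, U18C and A19U. let-7c-5p is also 1 base from let-7b-5p, so it lies between the first and the fourth most abundant member.

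The 3p sequences do not keep a single seed, and those below are the ones on which the results for this arm turn, again from RefSeq with bases 2 to 8 in capitals.
let-7b-3p: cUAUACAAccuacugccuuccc
let-7a-3p: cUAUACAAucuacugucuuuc
miR-98-3p: cUAUACAAcuuacuacuuuccc
let-7d-3p: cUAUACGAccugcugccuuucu
let-7i-3p: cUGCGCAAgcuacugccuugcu
The seed UAUACAA was common to let-7a-3p, let-7b-3p, let-7f-1-3p and miR-98-3p, which had 956 reads together in the spheroid table and 424 in the parental table. Each of the other 5 listed 3p sequences had a seed of its own within the family. let-7a-2-3p and let-7c-3p had no row in either table, and let-7f-2-3p was named from its place in the let-7f-2 hairpin.

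The 12 stem-loops are spread over 8 chromosomes, and 7 of them lie in clusters with another member. On GRCh37, the build of the authors' annotation, let-7a-1 (chr9:96938234-96938325), let-7f-1 (chr9:96938629-96938715) and let-7d (chr9:96941116-96941202) follow each other on the plus strand in exons of the long noncoding RNA MIRLET7A1HG, with 303 and 2400 bases between them. let-7a-3 (chr22:46508629-46508702) and let-7b (chr22:46509566-46509648) are 863 bases apart in exons of MIRLET7BHG, and let-7f-2 (chrX:53584153-53584235) and mir-98 (chrX:53583184-53583302) are 850 bases apart in introns of HUWE1, on the minus strand. The others are let-7a-2 (chr11:122017229-122017301, an intron of MIR100HG), let-7c (chr21:17912143-17912236, an exon of MIR99AHG), let-7e (chr19:52196039-52196117, an intron of SPACA6), let-7g (chr3:52302292-52302379, an intron of WDR82) and let-7i (chr12:62997466-62997550, an intron of MIRLET7IHG). let-7a-5p comes from 3 stem-loops and let-7f-5p from 2, and their reads cannot be divided among these copies.

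By level, let-7 was a major seed family of these cells. Its summed 5p reads were 101156 in the spheroid table and 50386 in the parental table, which is 6.51% (interval 6.47 to 6.55) of spheroid reads and 9.33% (9.26 to 9.41) of parental reads. In both tables this was the third largest of 346 seeds, after those of miR-10a-5p and miR-21-5p. In the spheroid table the distance to the next seed, that of miR-27b-3p with 6.47%, was small, whereas in the parental table that seed had 7.85%.

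The 5p members spanned more than 2 orders of magnitude and stood in the same order in both tables: let-7a, let-7f, let-7i, let-7b, let-7g, miR-98, let-7d, let-7e and let-7c. Neighbours in this order had intervals that did not overlap in either table, although the replicate spread behind them is unknown. let-7a-5p, the most abundant, had 44645 reads (28747 rpm) in spheroid cells and 21125 reads (39135 rpm) in parental cells, and was in place 7 of all spheroid and place 5 of all parental sequences. let-7f-5p followed with 23520 reads (15145 rpm) in spheroid cells and 12615 (23370 rpm) in parental cells. let-7c-5p closed the order with 179 reads (115 rpm) in spheroid cells and 114 (211 rpm) in parental cells.

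**Figure D1:**
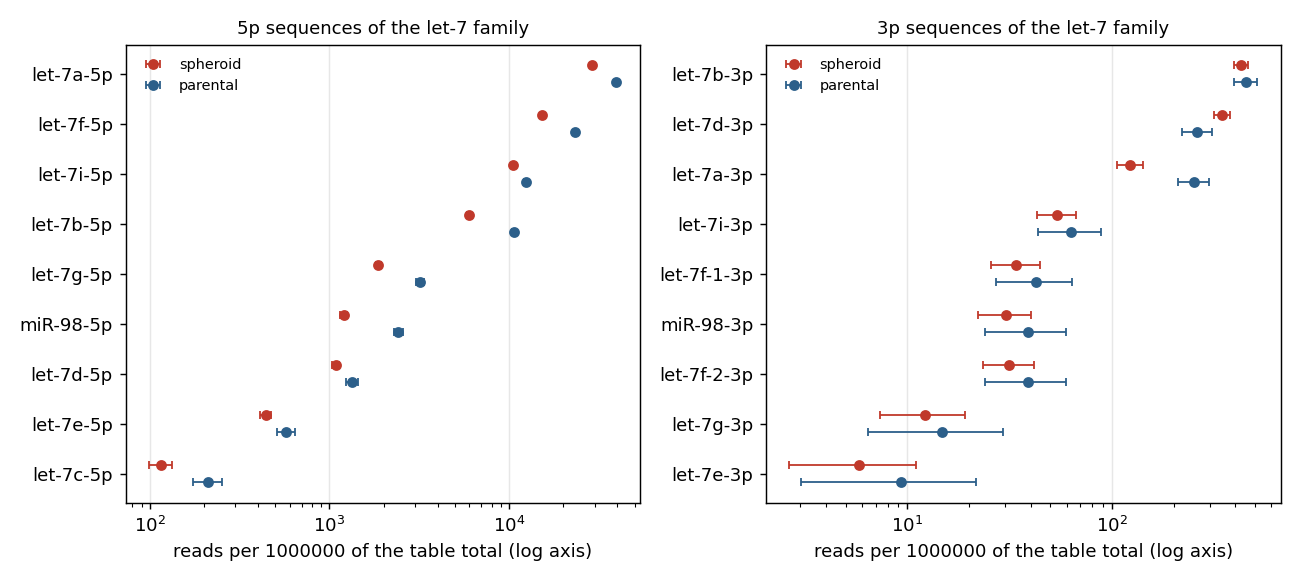
Levels of the 18 let-7 family sequences in reads per 1000000 of the table total, on log axes, with the 5p arm on the left and the 3p arm on the right. Each point is 1 table, spheroid in red above parental in blue, and bars are exact 95% intervals for counting error, hidden by the point where narrow. The 9 spheroid points of the 5p arm lie left of their parental points, and among 3p sequences only let-7d-3p lies to the right.

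All 9 seed-bearing 5p sequences had a lower share of reads in spheroid than in parental cells. Summed, they were at 0.698 times the parental level (interval 0.690 to 0.705, log2 -0.52), and the sum without let-7a-5p was at 0.671 times (0.662 to 0.681). The median log2 fold of the 9 was -0.63 and their range -1.01 to -0.23, whereas the median was -0.11 over the 183 sequences with at least 100 reads and -0.06 over the 170 of these outside the family. By table totals each of the 9 had an interval wholly under 1, and 44.3% of the 183 sequences had one too. Intervals of single sequences were not computed under other scales, and with median-of-ratios factors let-7i-5p was at 0.979. Over both arms, 12 of the 13 members with at least 100 reads had a fold under 1, beside 57.9% of the 183. The family sum lay 0.41 log2 units below the median of the 183 sequences under the main scale and equally under TMM and median-of-ratios factors, since these move every sequence alike.

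The size of the difference varied within the family by more than the counting error. miR-98-5p had the lowest 5p fold, with 1863 reads (1200 rpm) in spheroid and 1306 reads (2419 rpm) in parental cells, a fold of 0.496 (0.462 to 0.533). Next came let-7c-5p at 0.546 (0.429 to 0.696), let-7b-5p at 0.558 (0.540 to 0.577) and let-7g-5p at 0.586 (0.552 to 0.623). let-7b-5p had 9251 reads (5957 rpm) in spheroid and 5759 (10669 rpm) in parental cells, and let-7g-5p 2908 (1872 rpm) in spheroid and 1724 (3194 rpm) in parental cells. let-7f-5p was at 0.648 (0.634 to 0.662), let-7a-5p at 0.735 (0.723 to 0.747) and let-7e-5p, with 685 spheroid and 311 parental reads, at 0.766 (0.669 to 0.878). By all reads, the members nearest to the parental level were let-7d-5p and let-7i-5p. let-7d-5p had 1682 spheroid and 719 parental reads and a fold of 0.813 (0.745 to 0.889). let-7i-5p had 16423 reads (10575 rpm) in spheroid and 6713 (12436 rpm) in parental cells and a fold of 0.850 (0.826 to 0.875). By the few reads counted as unique to it, 1191 in spheroid and 444 in parental cells, let-7f-5p was at 0.932. By its exact reads let-7f-5p was at 0.652.

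By the criteria of the study's methods, an adjusted p under 0.05 by Kal's Z-test over all 436 sequences with a read and a fold over 2, 2 of the 18 members were called lower in spheroid cells, miR-98-5p and let-7a-3p, and 0 were called higher. The study's own list differs: it holds the entry for let-7a-1 and let-7a-3 as lower, with a larger fold than here, and none for mir-98. Of all 436 sequences, 8.94% were called lower and 4.82% higher. Restricted to sequences with at least 100 reads, 2 of 13 members were called lower and 0 higher, against 10.9% of sequences lower and 8.74% higher, so the calls of the family were about as frequent as elsewhere. Both calls rest on the fold threshold: with TMM factors miR-98-5p was at 0.555 and let-7a-3p at 0.544, which is inside it, and 0 members were called. The same factors changed the split of all calls, which was 21 higher and 39 lower with table totals (65% lower) and 28 higher and 30 lower with TMM (51.7% lower). With a variation of 0.2 between cultures assumed, edgeR's exact test also called 0 members. At the adjusted p alone, without the fold, 10 members were lower and 1 higher, among 101 lower and 64 higher of all sequences.

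**Figure D2:**
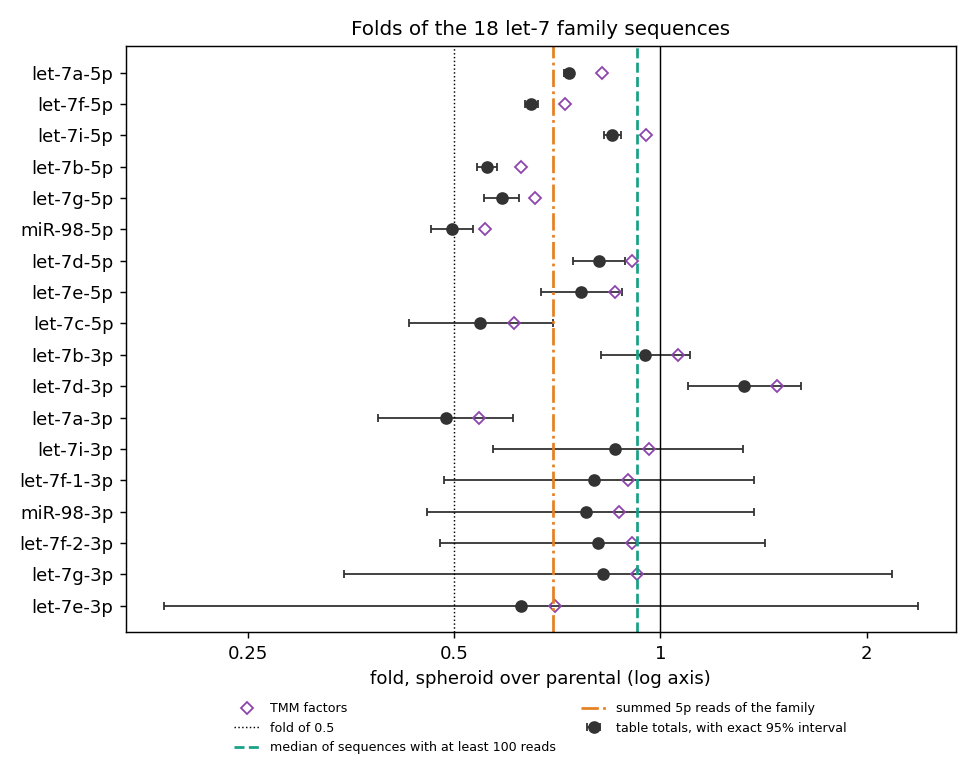
Folds of the 18 sequences, spheroid over parental, on a log axis. Filled points use table totals and carry exact 95% intervals for counting error, and open diamonds use TMM factors. Lines mark folds of 1 and 0.5, the median of sequences with at least 100 reads (0.925) and the summed 5p reads of the family (0.698). With TMM factors all 9 5p sequences stay left of 1 and all 18 diamonds lie right of 0.5.

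Within the family, the make-up of the 5p reads shifted, a comparison that does not depend on the scale between the tables. let-7a-5p made up 44.1% of the family's 5p reads in spheroid and 41.9% in parental cells, and let-7i-5p 16.2% in spheroid and 13.3% in parental cells. In place of these, let-7f-5p held 23.25% in spheroid and 25.04% in parental cells, and let-7b-5p 9.15% in spheroid and 11.4% in parental cells. Against the sum of the other 8, let-7i-5p was at 1.26 times its parental ratio (1.23 to 1.30), let-7d-5p at 1.17 (1.07 to 1.28) and let-7a-5p at 1.09 (1.08 to 1.11). On the other side, miR-98-5p was at 0.705 (0.657 to 0.757), let-7b-5p at 0.780 (0.755 to 0.806), let-7g-5p at 0.835 (0.787 to 0.887) and let-7f-5p at 0.907 (0.888 to 0.927). The interval of let-7e-5p, 0.959 to 1.26, held 1, and that of let-7c-5p, 0.615 to 0.998, ended just below it. These shares use all reads, and for let-7c-5p and let-7f-5p the direction depends on the reads used. With exact reads the fold of let-7c-5p was 0.858 and that of the 5p sum 0.699. With unique reads let-7f-5p was at 0.932 and the sum at 0.697, whereas with exact reads let-7f-5p was at 0.652.

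Cluster neighbours had unequal folds, though let-7a-5p and let-7f-5p mix copies from elsewhere. let-7b-5p was at 0.558 and its neighbour let-7a-3 gives let-7a-5p, which was at 0.735 over all its copies. In the chromosome 9 cluster, let-7d-5p was at 0.813 and the sequences that it neighbours, let-7a-5p and let-7f-5p, at 0.735 and 0.648. miR-98-5p, at 0.496, lies beside let-7f-2. The copies of let-7f can be told apart only by their 3p arms: let-7f-1-3p had 53 spheroid and 23 parental reads and let-7f-2-3p 49 spheroid and 21 parental reads, with a fold of 0.801 (0.482 to 1.37) for let-7f-1-3p and 0.811 (0.477 to 1.42) for let-7f-2-3p. On these few reads no difference between the copies was detectable.

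Some let-7 stem-loops share a primary transcript or a cluster with miRNAs of the miR-99, miR-100 and miR-125 families, which have other seeds. None of their 5p sequences was called. miR-125a-5p, from the cluster of let-7e, had 5791 reads in spheroid and 1128 in parental cells, a fold of 1.78 (1.67 to 1.90), whereas miR-99b-5p of the same cluster was at 1.05 (0.992 to 1.11) and let-7e-5p at 0.766. miR-100-5p, from the host transcript of let-7a-2, was at 0.992 (0.913 to 1.08), and miR-125b-5p, which that transcript and the let-7c cluster both give, at 0.900 (0.848 to 0.955). miR-99a-5p, the neighbour of let-7c, had 30 spheroid and 8 parental reads and a fold of 1.30 (0.584 to 3.29). Among the 3p sequences of these partners, miR-125b-2-3p, with 260 spheroid and 24 parental reads, was called higher at 3.77-fold (2.48 to 5.98), and miR-100-3p, on 6 spheroid and 9 parental reads, was called lower at 0.232-fold (0.0679 to 0.729).

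The hairpins of let-7d, let-7b and mir-98 are printed because the 3p share of let-7d and let-7b differed between the tables and because mir-98 and let-7b lack the loop motif searched below. They are RefSeq sequences, 5′ to 3′, with the 5p and then the 3p mature arm in capitals.
let-7d: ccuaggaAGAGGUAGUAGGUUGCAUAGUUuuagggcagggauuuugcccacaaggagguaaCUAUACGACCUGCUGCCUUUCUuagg
let-7b: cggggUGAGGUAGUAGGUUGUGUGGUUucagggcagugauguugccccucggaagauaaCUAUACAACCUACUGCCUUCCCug
mir-98: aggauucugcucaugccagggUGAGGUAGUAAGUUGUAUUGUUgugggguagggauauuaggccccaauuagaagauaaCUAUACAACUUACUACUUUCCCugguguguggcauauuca
The letters GGAG, which LIN28 is known to recognise in let-7 precursors, occurred between the arms of 9 of the 12 family hairpins on the given strand, and not in let-7a-3, let-7b and mir-98. Among 740 RefSeq hairpins with both arms annotated, 8.24% held them there. The members without the letters from single hairpins, let-7b-5p and miR-98-5p, were at 0.558 and 0.496, and those with them ranged from 0.546 for let-7c-5p to 0.850 for let-7i-5p. The let-7c-5p value lay between those of the 2 members without the letters, and is itself uncertain, at 0.858 with exact reads. Whether the letters bear on the folds was not tested. Precursors can also be grouped by the overhang left at their 3′ end, which decides whether they need an added base before Dicer cuts. The sum of the 5p reads of the class with an overhang of 1 base (let-7b, let-7d, let-7f, let-7g, let-7i and miR-98) was at 0.671 (0.661 to 0.680), and that of the class with 2 bases (let-7c and let-7e) at 0.707 (0.628 to 0.795), with intervals that overlapped. let-7a, whose copies fall in both classes, was left out of these sums.

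The 3p strands, which usually do not stay in Argonaute, were scarce. Together they had 1654 reads (0.107%) in the spheroid table and 633 reads (0.117%) in the parental table, a fold of 0.908 (0.828 to 0.997), which is nearer to 1 than that of the 5p sum. The median log2 fold of the 9 was -0.30, beside -0.63 for the 5p arm and -0.11 over the sequences with at least 100 reads. let-7b-3p was the most abundant, with 666 reads (429 rpm) in spheroid and 244 (452 rpm) in parental cells, and its fold of 0.949 (0.818 to 1.10) did not differ detectably from 1 and moved to 1.06 with TMM factors. let-7d-3p, with 537 reads (346 rpm) in spheroid and 141 (261 rpm) in parental cells, was the only member with a higher share of reads in spheroid cells, at 1.32-fold (1.10 to 1.61, adjusted p = 0.00877 by Kal's Z-test), but was not past the fold threshold. let-7a-3p had 190 reads (122 rpm) in spheroid and 136 (252 rpm) in parental cells, a fold of 0.486 (0.388 to 0.610). This call came from reads that differ from the annotated sequence, since its exact reads, 37 in spheroid and 10 in parental cells, gave a fold of 1.37. Only 1 of its 190 spheroid reads and 3 of its 136 parental reads were counted as unique to it, which gave a fold of 0.116 and no call.

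The remaining 3p members were near the limit of these tables. let-7i-3p had 84 spheroid and 34 parental reads with a fold of 0.859 (0.570 to 1.32), and miR-98-3p 47 spheroid and 21 parental reads with 0.778 (0.456 to 1.37). let-7g-3p had 19 spheroid and 8 parental reads at 0.826 (0.345 to 2.18), and let-7e-3p 9 spheroid and 5 parental reads at 0.626 (0.188 to 2.38). Their intervals, and those of both let-7f 3p sequences, held 1 and also 0.698, the fold of the 5p sum, so a difference of that size was not detectable at this depth. In level, neighbours from let-7i-3p down to miR-98-3p had overlapping intervals in both tables.

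The share of a miRNA's reads that comes from the 3p arm does not depend on the scale. It compares the strands of the same hairpins except in let-7a, where the 5p reads come from 3 hairpins and the listed 3p sequence from 2, so that its share also varies with the reads that let-7a-2 gives. It differed in 3 of the 8 family names with both arms read. In let-7d the 3p arm made up 24.2% of reads (22.4 to 26.0) in spheroid and 16.4% (13.98 to 19.04) in parental cells, and in let-7b 6.72% (6.23 to 7.23) in spheroid and 4.06% (3.579 to 4.595) in parental cells. In let-7a it made up 0.424% (0.366 to 0.488) in spheroid and 0.640% (0.537 to 0.756) in parental cells. Fisher's exact test of the reads, two-sided and adjusted over 106 miRNA names, gave an adjusted p of 2.57e-05 for let-7d, 1.23e-10 for let-7b and 0.00229 for let-7a. Among the 106 names the 3p share was called higher in spheroid cells for 9.43% and lower for 5.66%.

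Only the difference for let-7d was seen among exact reads as well. There, with 365 spheroid and 101 parental 3p reads, the 3p share was 23.4% in spheroid and 16.2% in parental cells (adjusted p = 0.00318 by Fisher's exact test). let-7b-3p had 0 exact reads of 666 in the spheroid table, which allows up to 0.552%, and 1 of 244 in the parental table, so its arm share could not be compared this way, and the let-7a difference turned to 0.0528 percentage points higher in spheroid cells. Of the other names, miR-98 had 2.46% 3p reads in spheroid and 1.58% in parental cells, let-7e 1.30% in spheroid and 1.58% in parental cells, and let-7g 0.649% in spheroid and 0.462% in parental cells. let-7i had 0.509% in spheroid and 0.504% in parental cells and let-7f 0.432% in spheroid and 0.348% in parental cells, and in each of these 5 the intervals overlapped.

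**Figure D3:**
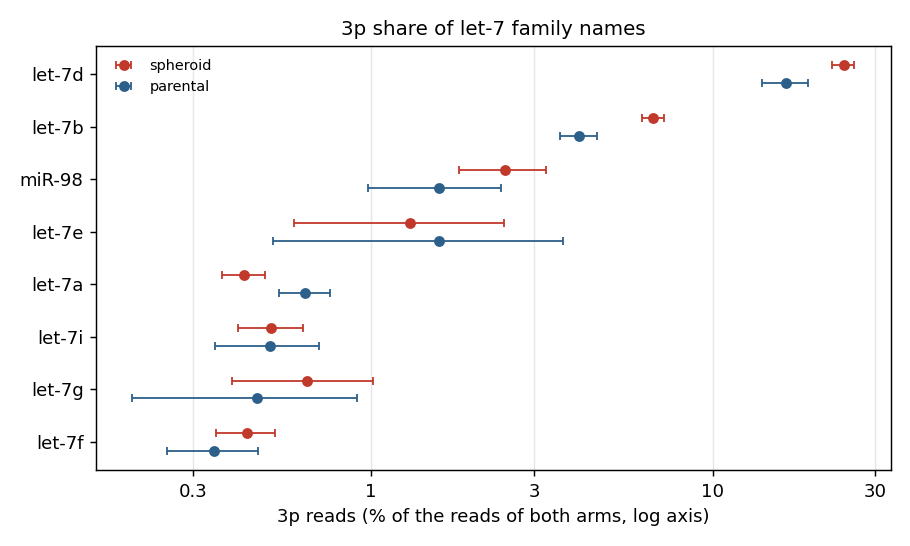
Reads of the 3p arm as a percentage of the reads of both arms of each family name, on a log axis. Each point is 1 table, spheroid in red above parental in blue, with exact 95% intervals for counting error. In let-7d (24.2% in spheroid, 16.4% in parental cells) and let-7b (6.72% in spheroid, 4.06% in parental cells) the spheroid point is to the right and the intervals are apart, and in let-7a (0.424% in spheroid, 0.640% in parental cells) it is to the left.

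Summed, the family's 5p reads matched the annotated mature sequence far more often than reads of other miRNAs did. The exact share, the percentage of a sequence's reads identical to it from end to end, was 72.6% in spheroid and 77.3% in parental cells for the summed 5p members, whereas for all reads outside the family it was 29.97% in spheroid and 30.6% in parental cells. The median over sequences outside the family with at least 100 reads was 31.4% in spheroid and 35.1% in parental cells. In the parental table miR-98-5p was in place 10 of 183 by this share, let-7g-5p in place 13, let-7f-5p in place 16, let-7a-5p in place 20, let-7i-5p in place 21, let-7d-5p in place 29, let-7e-5p in place 34 and let-7b-5p in place 48. let-7c-5p, with 20.7% exact reads in spheroid and 14.0% in parental cells, was the exception among the 5p members, in place 126 and below both medians. The 3p members had 27.4% exact reads in spheroid and 22.0% in parental cells, and the members differed widely, with 68.0% in spheroid and 71.6% in parental cells for let-7d-3p but 0 exact reads in either table for let-7f-1-3p, let-7f-2-3p and miR-98-3p.

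For 8 of the 9 5p members the exact share was lower in spheroid than in parental cells, and for 6 of them past the threshold of Fisher's exact test, adjusted over 183 sequences. Among those 183, 15.8% were called lower, 9.84% higher, and 53.6% had a lower value in the spheroid table. Many of the 183 had fewer reads than these 6 members, and the test detects smaller differences on more reads. The share called among sequences of like depth was not computed. The widest gap was that of let-7b-5p, with 48.0% exact reads (46.9 to 49.0) in spheroid and 58.3% (56.97 to 59.53) in parental cells. miR-98-5p had 81.1% in spheroid and 87.3% in parental cells, let-7a-5p 73.0% in spheroid and 78.0% in parental cells, let-7f-5p 78.8% in spheroid and 83.6% in parental cells, let-7g-5p 80.7% in spheroid and 85.1% in parental cells, and let-7i-5p 75.5% in spheroid and 77.7% in parental cells. let-7e-5p, with 59.3% in spheroid and 67.2% in parental cells, missed the threshold (adjusted p = 0.0620 by Fisher's exact test), and the intervals of let-7d-5p, at 71.2% in spheroid and 72.9% in parental cells, overlapped. let-7a-3p went the other way, with 19.5% exact reads in spheroid and 7.35% in parental cells (adjusted p = 0.0108 by Fisher's exact test). Which bases were added, lost or changed in the other reads cannot be seen from the counts.

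**Figure D4:**
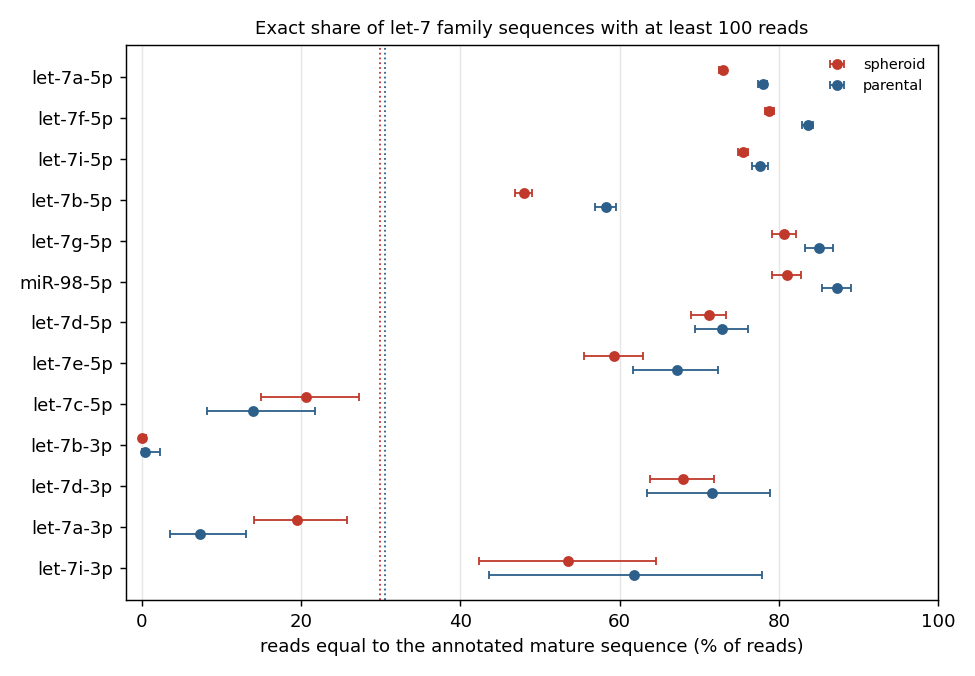
Exact share, the percentage of reads equal to the annotated mature sequence, for the 13 family sequences with at least 100 reads over both tables. Each point is 1 table, spheroid in red above parental in blue, with exact 95% intervals for counting error, and dotted lines mark the share of all reads outside the family (29.97% in spheroid, 30.6% in parental cells). In 8 of the 9 5p members the spheroid point lies to the left, and let-7c-5p, let-7b-3p and let-7a-3p lie left of the dotted lines.

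The share of reads counted as unique to 1 mature sequence varied widely among the members. For let-7i-5p, let-7g-5p, let-7d-5p and miR-98-5p between 99.76% and 100% of reads were unique in both tables, and for let-7b-5p 98.5% in spheroid and 98.4% in parental cells. let-7e-5p, although 1 base from let-7a-5p, had 93.6% unique reads in spheroid and 94.2% in parental cells. For let-7a-5p 0.730% were unique in spheroid and 0.757% in parental cells, and for let-7f-5p 5.06% in spheroid and 3.52% in parental cells. These and let-7a-3p, with 0.526% in spheroid and 2.21% in parental cells, are the members with several stem-loops, and how the counting treats such copies is not given in the sources used here. let-7c-5p, a single-copy sequence, had only 45 unique reads of 179 (25.1%) in spheroid and 20 of 114 (17.5%) in parental cells. Its exact reads were 37 in spheroid and 16 in parental cells, so most of its count came from reads that differ from its annotated sequence, and its fold moved to 0.858 with exact reads and 0.782 with unique reads. Its level is therefore uncertain.

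Outside the family, the abundant sequences whose fold was nearest to the 5p sum were miR-20a-5p at 0.701 (0.622 to 0.792), miR-106b-5p at 0.707 (0.629 to 0.795) and miR-92b-3p at 0.682 (0.661 to 0.704), a likeness over 2 tables only. Of the markers checked for the labelled line, miR-21, miR-221 and miR-222 summed to 191976 rpm in spheroid and 221457 rpm in parental cells. Most of this was miR-21-5p, at 173118 rpm in spheroid and 201714 rpm in parental cells. miR-221-3p was at 0.921-fold and miR-222-3p, in the other direction, at 1.40-fold. The epithelial miR-200 family was at 111 rpm in spheroid and 70.4 rpm in parental cells. Markers of other cell types were also read. Those of endothelium stood at 264 rpm in spheroid and 63.0 rpm in parental cells, those of fibroblast and mural cells (4 of 4 names listed) at 361 rpm in spheroid and 122 rpm in parental cells, and those of muscle, with mir-1 and mir-206 not listed and mir-133a left, at 9.01 rpm in spheroid cells and 0 in parental cells. Most fibroblast and mural reads were of miR-143-3p, with 441 in spheroid and 48 in parental cells. No sequence of miR-145 or miR-214 had more than 3 reads in either table. Among blood markers mir-451a and mir-223 were not listed and mir-142 was at 27.7 rpm in spheroid and 25.9 rpm in parental cells, and among neural markers mir-124 was not listed and mir-9 was at 1697 rpm in spheroid and 3001 rpm in parental cells. The part of these differences in the let-7 values was not tested.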

How the data were processed

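Small RNA was sequenced by the authors from 3 spheroid and 3 parental samples of MDA-MB-231 cells. The authors trimmed the reads, kept lengths of 17 to 27 bases and annotated them in CLC Genomics Workbench 7.0 against miRBase 19 and Ensembl release 57 (GRCh37). The deposited values are counts, whole numbers of reads per mature sequence with no normalization, in 1 table per condition with 0 columns per sample. Other deposited columns count exact mature reads and reads unique to a mature sequence. Totals were 1553014 spheroid and 539798 parental reads.

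Sequences were matched between the tables and named from RefSeq (GRCh38.p14 table, used for sequences only), which held 388 of 437 sequences and 17 of 18 members. Loci came from GENCODE release 44 mapped to GRCh37. Counts were scaled to reads per 1000000. Kal's Z-test, Fisher's exact test, Benjamini-Hochberg adjustment over all sequences or names, and exact (Clopper-Pearson) 95% intervals used scipy 1.17.1, pandas 2.3.3 and numpy 2.4.6 under Python 3.11.15 (plots: matplotlib 3.10.9). The adjustment of the share tests had been planned over the members alone and was widened to all. Shares were tested from 100 reads over both tables. Calls needed a fold over 2 together with an adjusted p under 0.05. Alternatives were TMM factors and the exact test of edgeR 4.0.16 with an assumed coefficient of variation of 0.2 or 0.4, median-of-ratios factors of DESeq2 1.42.0 (R 4.3.3), totals without the 5 most abundant sequences, exact or unique reads, minima of 10 or 50 reads, unadjusted p, Fisher's exact test in place of Kal's and thinned spheroid reads. The steps were tested on simulated counts.

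Every member was named, both arms included, and the other lists were seed sharers, cluster partners, overhang classes, the GGAG letters and cell type markers. The nearest sequences were those with at least 1000 reads whose log2 fold was closest to that of the 5p sum. The members and lists were chosen with earlier results of these data known.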

Additional observations from a re-analysis of the deposited data

How the results depend on the processing

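No paired analysis was possible because the tables hold no column per sample, so neither a replicate block nor leaving out replicates was run. Read minima, other tests and unadjusted p use the same 5p folds, so they could not move them. Under the other alternatives all 9 5p folds stayed under 1. With median-of-ratios factors let-7i-5p came to 0.979, let-7d-5p to 0.936 and let-7e-5p to 0.881. The fold of the summed 5p reads ran between 0.697 with unique reads and 0.803 with median-of-ratios factors (0.781 with TMM). Unique reads were only 0.730% of spheroid let-7a-5p reads and 5.06% of let-7f-5p reads, so their sum rests mainly on other members. TMM moved all log2 folds by 0.16 and median-of-ratios factors by 0.20. The number of members called lower was 2 with table totals, 0 with TMM, with median-of-ratios factors, without the 5 most abundant sequences and with edgeR's exact test at a variation of 0.2 or 0.4, and 1 with unique reads. It was 2 with exact reads, which were miR-98-5p and let-7b-5p (0.490). All sequences called numbered 21 higher and 39 lower with table totals, 13 higher and 8 lower in edgeR's exact test at 0.2 and 0 either way at 0.4, and the share of calls that were lower was 49.1% with median-of-ratios factors. let-7b-3p turned to 1.06 with TMM and 1.09 with median-of-ratios factors, let-7a-3p to 1.37 with exact reads and let-7e-3p to 1.20 with thinned reads. With exact reads the names with a higher 3p share numbered 1 (2 with all reads) and those with a lower one 0 (1 with all reads), and the 3p share differences turned to 0.0528 percentage points in let-7a, -0.0339 in let-7g and -0.0397 in let-7i. The causes were not tested. The 6 lower exact shares included 4 of sequences without copies, which were also lower with unique reads as the base. let-7b-3p, let-7f-1-3p, let-7f-2-3p and miR-98-3p gave no fold from exact reads. The parental table, with 539798 reads, limits the 5 3p members under 100 reads.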
